A study of Mus musculus with 17 samples.

Results

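Receptors for the Fc part of IgG let Kupffer cells (KCs), macrophages that reside in the liver sinusoids, bind antibody-coated particles and immune complexes. The expression of 10 genes of this system was read in sorted mouse KCs. They were the activating receptors Fcgr1, Fcgr3 and Fcgr4, the inhibitory receptor Fcgr2b, the neonatal Fc receptor Fcgrt, the ITAM adaptors Fcer1g and Tyrobp, and the signalling enzymes Syk, Lyn and Plcg2. They were found by symbol, and all 10 were present among the 25124 genes of each of the 3 deposited tables. All 10 passed the filter on low values in each table, and each was above it in all 17 libraries.

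An activating Fc gamma receptor binds IgG and signals through the ITAM, a tyrosine motif carried by the adaptor Fcer1g (the common gamma chain). Src-family kinases such as Lyn phosphorylate the ITAM, Syk docks on it, and Plcg2 and other effectors are engaged downstream. Fcgr2b carries an inhibitory motif (ITIM) instead and recruits phosphatases that dampen the same cascade, so that the level of the activating receptors relative to Fcgr2b is commonly used to describe how a phagocyte is set to respond to IgG. Fcgr2b is also abundant on liver sinusoidal endothelial cells (LSECs) and B cells, while Tyrobp (DAP12) serves receptors other than those for IgG. Fcgrt protects IgG from degradation and does not signal through an ITAM.

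TIM4+CD206+ KCs gave 3 libraries from untreated mice (tumour-free) and 3 from mice injected with tumour cells through the portal vein 2 weeks earlier (tumour-bearing), and TIM4+CD206high KCs gave as many. A separate set of tumour-free, untreated mice gave 3 libraries of Id3f/f and 2 of Clec4fCreId3f/f KCs. The injected KPC cells came from a mouse pancreatic adenocarcinoma line. Both Id3 genotypes carried floxed Id3 alleles, and Clec4f-driven Cre, which is active in KCs from around birth, deletes Id3 in the KCs of Clec4fCreId3f/f mice. The ages of the mice are not given in the sources used here. The KC subsets were gated as CD45+ F4/80+ TIM4+ cells without markers of lymphocytes or neutrophils and divided by CD206. Before sorting, cells were incubated with an antibody that blocks FcγRII and FcγRIII. The subset comparisons address how KCs of tumour-bearing liver differ from those of healthy liver. Cells near to and far from a tumour were not separated. The genotype comparison addresses what KCs lose or gain without Id3. The labels number the replicates but do not say that each came from a separate mouse, so the p-values measure the spread between these samples.

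Id3 itself was lower in the deleted KCs, with deposited log2 values of 12.58, 12.46 and 12.82 in Id3f/f against 9.83 and 9.82 in Clec4fCreId3f/f libraries. KC markers were present throughout, with a summed level of the 9 markers of 19.66 to 21.25 on the log2 scale in every library. Other cell types left traces that moved with tumour. Markers called higher with tumour were 3 of 8 for monocytes, 5 of 9 for neutrophils and 9 of 9 for epithelial cells in both subsets. Markers called lower were 5 of 9 for hepatocytes, 4 of 6 for B cells and 3 of 9 for KCs in TIM4+CD206+ cells, and 6 of 9 for hepatocytes, 2 of 8 for B cells and 5 of 14 for LSECs in TIM4+CD206high cells. With Id3 deletion 3 KC markers of 9 were called higher and 2 lower, 2 of 6 monocyte markers were called lower, 1 of 14 LSEC markers was called in each direction and 1 of 9 hepatocyte markers was called higher. No other marker list had a call in that comparison besides the sex-linked genes, of which 1 was called higher and 4 lower, so that sex and genotype cannot be told apart there. In TIM4+CD206+ KCs limma called 0 of 4 sex-linked genes, but all 4 were higher with tumour and 3 had an unadjusted p under 0.05. Their summed log2 level was 9.16 to 9.70 without and 10.12 to 10.61 with tumour, and the part of sex in that comparison was not tested. For T and NK cells and for dendritic cells, limma called 0 markers in any comparison, and at most 5 of 9 and 1 of 5 had an unadjusted p under 0.05.

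Fcgr2b, Fcgr4, Fcgr3 and Fcer1g lie in one cluster on chromosome 1 of GRCm38, the build (mm10) that the submitters name. Fcgr2b (chr1:170958617-170976547, minus strand), Fcgr4 (chr1:171018920-171029761, plus strand) and Fcgr3 (chr1:171051174-171064935, minus strand) span 106.3 kb, and Fcer1g (chr1:171229572-171234365, minus strand) ends 275.7 kb from the start of Fcgr2b. Fcgr1 (chr3:96282909-96293969, minus strand), Tyrobp (chr7:30413760-30417585, plus strand), Fcgrt (chr7:45092990-45103851, minus strand), Syk (chr13:52583173-52648792, plus strand), Lyn (chr4:3678115-3813122, plus strand) and Plcg2 (chr8:117498291-117635142, plus strand) lie elsewhere.

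Because Fcgr2b and Fcgr3 are near copies over part of their extracellular region, the sequence that they share is shown to let the reader judge how far their reads can be told apart. The longest identical run in their coding sequence was 129 bases, of which 102 were the end of exon 3 (chr1:170967980-170968081 in Fcgr2b and chr1:171057691-171057792 in Fcgr3) and 27 the start of exon 4 (chr1:170966674-170966700 and chr1:171054167-171054193), as transcribed from the minus strand. Capitals mark the bases of exon 4.
Shared run of Fcgr2b and Fcgr3: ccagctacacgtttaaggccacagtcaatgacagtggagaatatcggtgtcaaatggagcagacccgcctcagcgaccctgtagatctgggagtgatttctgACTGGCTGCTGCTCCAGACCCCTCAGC
Of all stretches as long as a read (100 bases) in the transcripts, 44 were shared, which was 1.14% of those of Fcgr2b and 2.7% of those of Fcgr3. No stretch of this length was shared with or between Fcgr1 and Fcgr4. Exons of Fcgr2b also overlapped an antisense gene (Gm38204) over 155 bases and those of Lyn a non-coding gene (Gm26857) over 248 bases. How reads from such places were assigned is not given in the sources used here, and values of Fcgr2b, Fcgr3 and Lyn carry this uncertainty.

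The promoters of 3 of the genes that fell with Id3 deletion are shown because Id3 is known to act by holding E proteins, which bind E-boxes (CANNTG), away from DNA. The windows run from 250 bases before to 50 bases after the RefSeq start site in the direction of transcription (GRCm38.p6), and capitals mark each E-box.
Fcgr2b, chr1:170976022-170976321, minus strand: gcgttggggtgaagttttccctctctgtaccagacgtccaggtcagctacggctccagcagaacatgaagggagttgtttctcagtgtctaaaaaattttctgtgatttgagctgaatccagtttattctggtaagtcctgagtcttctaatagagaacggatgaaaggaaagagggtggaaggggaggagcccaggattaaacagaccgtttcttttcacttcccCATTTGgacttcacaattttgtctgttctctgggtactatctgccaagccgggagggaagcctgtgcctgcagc
Fcgr4, chr1:171018676-171018975, plus strand: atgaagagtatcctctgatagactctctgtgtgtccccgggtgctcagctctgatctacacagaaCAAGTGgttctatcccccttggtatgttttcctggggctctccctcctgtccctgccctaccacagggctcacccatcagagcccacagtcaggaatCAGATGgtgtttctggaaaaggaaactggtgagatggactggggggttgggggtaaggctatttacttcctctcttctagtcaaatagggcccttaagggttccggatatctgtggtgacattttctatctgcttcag
Fcer1g, chr1:171234300-171234599, minus strand: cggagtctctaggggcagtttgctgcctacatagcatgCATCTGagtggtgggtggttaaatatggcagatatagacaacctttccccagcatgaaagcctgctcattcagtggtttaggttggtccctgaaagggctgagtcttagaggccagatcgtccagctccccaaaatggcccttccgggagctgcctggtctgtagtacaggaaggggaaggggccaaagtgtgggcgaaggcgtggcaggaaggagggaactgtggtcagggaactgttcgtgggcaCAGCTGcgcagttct
With the start site as 0, an E-box began at -24 in Fcgr2b, at -185 and -88 in Fcgr4 and at -212 and 35 in Fcer1g. The motif was searched as CANNTG, which reads the same on both strands, and 72.3% of all 32841 RefSeq promoters of this length held it. The windows of Fcgr1, Plcg2 and Syk held it too, and those of Fcgr3 and Fcgrt did not. The promoters of Tyrobp and Lyn are named only. The PU.1-type ETS motif AGGAAGT, searched on both strands, stood in the windows of Fcgr4 and Fcgr1 and in 9.35% of all promoters. The ELK1-type ETS motif CCGGAAGT stood in none of the windows searched and in 3.89% of all promoters. Of the E-box forms, CACCTG stood only in the windows of Plcg2 and Syk (20.2% of all promoters). CAGCTG stood only in windows of Fcer1g and Syk (16.3%). The part of any motif in the changes was not tested.

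Compared per kilobase of transcript, the adaptors were the most abundant of the 10 transcripts in every group, followed by Fcgr3, Fcgrt and, in all groups but the TIM4+CD206high ones, Fcgr4. In TIM4+CD206+ tumour-free KCs the level per kilobase, on the log2 scale, was 17.20 ± 0.44 (SD, n = 3) for Tyrobp and 16.41 ± 0.29 for Fcer1g, with no overlap between them. It was 15.36 ± 0.28 for Fcgrt, 15.31 ± 0.27 for Fcgr3 and 14.61 ± 0.66 for Fcgr4, and each of these overlapped its neighbour in the order. It was 12.78 ± 0.36 for Fcgr1 and 12.40 ± 0.04 for Lyn, which overlapped, and 10.57 ± 0.09 for Syk, 10.45 ± 0.22 for Plcg2 and 10.17 ± 0.94 for Fcgr2b, which overlapped too. Fcgr2b was thus the lowest on average of the 10 in these cells at the median transcript length. Its 4 coding transcripts run from 1084 to 3544 bases (median 1520), so its place in the order depends on the length taken. In Id3f/f KCs the order was nearly the same, with Fcgr2b at 9.97 ± 0.37 (n = 3) per kilobase, in place 8 of the 10, above Syk at 8.80 ± 0.15 and Plcg2 at 8.08 ± 0.25.

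TIM4+CD206high KCs stood apart in this order. There Fcgr2b stood in place 5 of the 10, at 14.52 ± 0.35 per kilobase on the log2 scale in tumour-free livers (n = 3), close to Fcgr3 at 14.56 ± 0.23 and above Fcgr4 at 13.33 ± 0.74 and Fcgr1 at 11.69 ± 0.52. The range of Fcgr2b overlapped that of Fcgr3 and lay above those of Fcgr4 and Fcgr1. Among all genes tested in their own library, Fcgr2b stood between the 99.1 and 99.5 percentile in these 3 libraries, against 65.8 to 85.2 in the 3 TIM4+CD206+ tumour-free ones. The subsets were deposited in separate tables that were normalised on their own, so this difference is given without a test. The summed level of 14 LSEC markers was also higher there, at 18.23 to 18.73 on the log2 scale against 14.13 to 15.18 in TIM4+CD206+ tumour-free KCs. All 14 were above the floor in both, and the part of endothelial RNA in the Fcgr2b level was not tested. The summed log2 level of 5 sex-linked genes, of which Xist lay below the filter, differed between the subsets as well. It was 12.70 to 13.53 in TIM4+CD206high and 9.16 to 9.70 in TIM4+CD206+ tumour-free KCs. With tumour it was 12.89 to 12.95 and 10.12 to 10.61. The part of sex in any difference between the subsets was not tested.

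**Figure D1:**
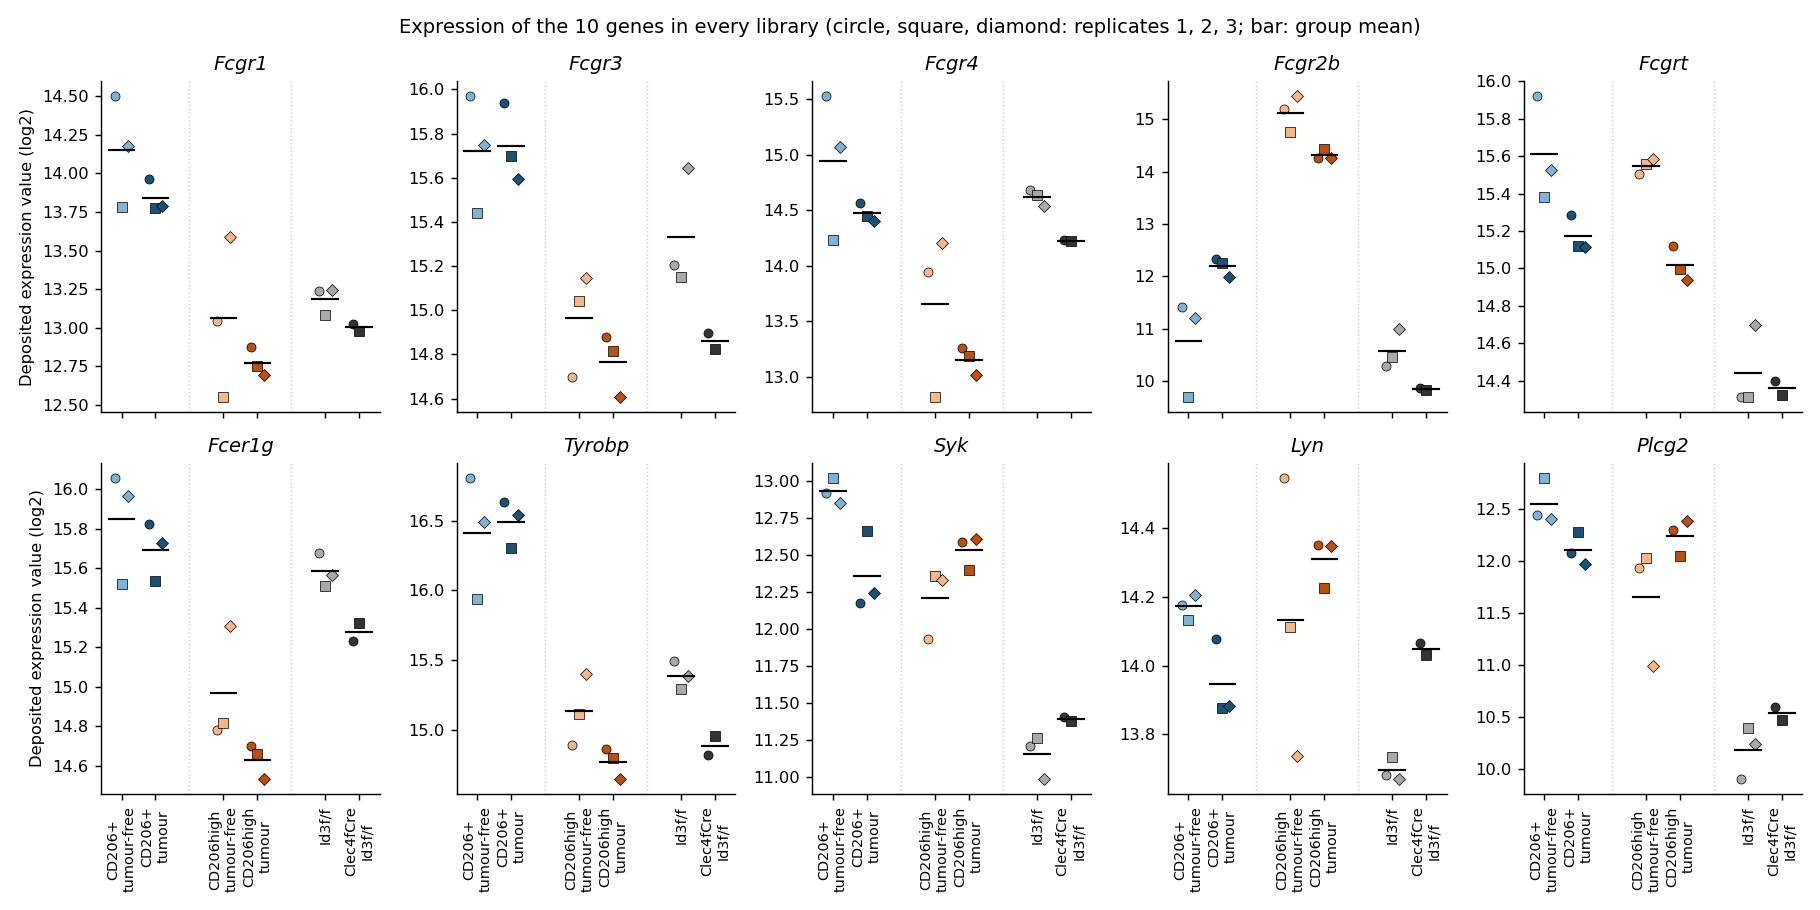
Deposited log2 expression value (vertical axis) of each gene in each of the 17 libraries, by group (horizontal axis), with dotted lines between the 3 separately normalised tables. Fcgr2b lies between 14.26 and 15.44 in the 6 TIM4+CD206high libraries and at or below 12.33 in all others.

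In TIM4+CD206+ KCs, the only Fc gamma receptor gene whose libraries did not overlap between tumour-free and tumour-bearing livers was Fcgr2b. Its deposited log2 values were 11.42, 9.69 and 11.21 without tumour and 12.33, 12.26 and 11.99 with tumour. All tumour-bearing libraries lay above all tumour-free ones, and tumour-free replicate 2 lay far below the others. The difference was +1.42 (SE 0.41, limma adjusted p = 0.115), a 2.68-fold higher mean on the linear scale, which did not pass the threshold of 0.05. When limma also held the replicate number as a block, since same-numbered samples of this subset deviated together, the adjusted p was 0.0133. Without tumour-free replicate 2 the difference was +0.88 (limma adjusted p = 0.0155), and over all libraries left out in turn the adjusted p ran from 0.0155 to 0.316. The summed LSEC level was not higher with tumour here, at 14.13 to 15.18 without and 13.75 to 14.24 with tumour on the log2 scale, nor was that of B-cell markers, at 13.61 to 13.70 without and 12.69 to 12.73 with tumour. That of monocyte markers moved the same way, from 13.65 to 14.91 without to 15.18 to 15.26 with tumour, as did that of neutrophil markers, from 12.00 to 13.52 without to 14.69 to 14.89 with tumour, and their part in the result was not tested. Since these are bulk samples, fewer cells of a type and less RNA per cell cannot be told apart.

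The activating receptors did not pass the test in this subset. Fcgr3 had 15.97, 15.44 and 15.75 without and 15.94, 15.70 and 15.59 with tumour, a difference of +0.02 with a 95% interval from -0.41 to 0.46. Fcgr4 had 15.53, 14.23 and 15.07 without and 14.57, 14.45 and 14.40 with tumour, a difference of -0.47 (SE 0.30, limma adjusted p = 0.495). Tumour-free replicate 2 lay below the tumour-bearing libraries and the others above them, and without that library the difference was -0.82 (limma adjusted p = 0.017), while without tumour-free replicate 1 it was -0.18 (limma adjusted p = 0.838). Fcgr1, the high-affinity receptor, had 14.50, 13.78 and 14.18 without and 13.96, 13.78 and 13.79 with tumour (difference -0.31, limma adjusted p = 0.501), with overlap, and the difference ran from -0.50 to -0.14 without tumour-free replicate 2 and 1.

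Downstream of the receptors, the means of the kinases and of Plcg2 were lower with tumour in TIM4+CD206+ KCs, without passing the test. Syk had 12.92, 13.02 and 12.85 without and 12.17, 12.66 and 12.24 with tumour (difference -0.57, SE 0.17, limma adjusted p = 0.133). Plcg2, which cleaves membrane lipids to raise calcium, had 12.44, 12.80 and 12.41 without and 12.08, 12.28 and 11.98 with tumour (difference -0.44, limma adjusted p = 0.241). The groups did not overlap for Syk and Plcg2, nor for Lyn (difference -0.23, limma adjusted p = 0.485). The adaptors differed little, by -0.15 for Fcer1g (95% interval -0.59 to 0.28) and +0.08 for Tyrobp (-0.46 to 0.62). Fcgrt, which handles IgG rather than signalling, had 15.92, 15.38 and 15.53 without and 15.28, 15.12 and 15.11 with tumour (difference -0.44, limma adjusted p = 0.265), again with no overlap, and the difference was -0.28 without tumour-free replicate 1. The summed B-cell level given above was lower in the same tumour-bearing libraries, with 4 of the 6 B-cell markers tested called lower, and so was that of the KC markers, at 20.74 to 21.25 without and 20.31 to 20.42 with tumour and 3 of 9 called lower. B cells also express Syk, Lyn and Plcg2, and the part of these markers' cells in the differences was not tested.

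Over the 10 genes, limma called 0 in this subset, where 3.54% of all 13233 genes tested were called (2.55% higher and 0.998% lower), and 4 had an unadjusted p under 0.05 (Fcgr2b, Syk, Plcg2 and Fcgrt). The groups were apart for 5 of the 10, where 23.4% of all genes were apart. Fcgr2b was the 1 of them that was higher with tumour (12.9% of all genes), and 4 were lower (10.5%). The blocked fit called 1 of the 10, with 7.75% of all genes called. Leaving out 1 library at a time called 0 to 2, and the 2 came without tumour-free replicate 2, where 7.72% of all genes were called. The median difference of the 10 was -0.27, against 0.02 over all genes tested.

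In TIM4+CD206high KCs, Fcgr2b again had groups that did not overlap, but in the other direction. Its log2 values were 15.19, 14.75 and 15.44 without tumour and 14.26, 14.44 and 14.27 with tumour. Every tumour-bearing library lay below every tumour-free one. The difference was -0.81 (SE 0.21, limma adjusted p = 0.0665), which did not pass the threshold. With the replicate number as a block in limma the adjusted p was 0.143. When libraries were left out in turn, the adjusted p from limma ran from 0.00713 (without tumour-free replicate 2, difference -0.99) to 0.264. LSEC markers moved with it, with a summed log2 level of 18.23 to 18.73 without and 17.38 to 17.71 with tumour and 5 of 14 called lower, as did B-cell markers (12.36 to 12.77 without and 11.87 to 11.95 with tumour), and their part in the result was not tested.

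Fcgr4 was spread widely without tumour in this subset, at 13.95, 12.82 and 14.20, and lay at 13.26, 13.19 and 13.02 with tumour (difference -0.50, SE 0.35, limma adjusted p = 0.437). As in TIM4+CD206+ KCs, the low library was tumour-free replicate 2, and without it the difference was -0.92 (limma adjusted p = 0.00899), while without tumour-free replicate 3 it was -0.23 (limma adjusted p = 0.719). That replicate was also the lowest tumour-free library for Fcgr1 and Fcgr2b in both subsets. Fcgr1 had 13.04, 12.55 and 13.59 without and 12.88, 12.75 and 12.70 with tumour (difference -0.29, limma adjusted p = 0.546), and Fcgr3 had 14.70, 15.04 and 15.15 without and 14.88, 14.81 and 14.61 with tumour (difference -0.20, limma adjusted p = 0.547). Both overlapped between the groups, and the difference of Fcgr1 ran from -0.54 to -0.023 without tumour-free replicate 2 and 3.

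The signalling genes had higher means with tumour in TIM4+CD206high KCs and the adaptors lower ones, none past the threshold. Syk had 11.93, 12.35 and 12.33 without and 12.59, 12.40 and 12.60 with tumour (difference +0.32, SE 0.18, limma adjusted p = 0.336). Plcg2 had 11.94, 12.03 and 11.00 without and 12.30, 12.05 and 12.39 with tumour (difference +0.59, SE 0.29, limma adjusted p = 0.297). Neither gene overlapped between the groups, although Plcg2 was nearly equal in the replicates numbered 2 and its lowest value came from tumour-free replicate 3. Without that library the difference of Plcg2 was +0.26 (limma adjusted p = 0.296), and without tumour-free replicate 1 that of Syk was +0.19 (limma adjusted p = 0.534). Lyn overlapped, with a difference of +0.18 (95% interval -0.35 to 0.70). Fcer1g had 14.78, 14.82 and 15.31 without and 14.70, 14.66 and 14.53 with tumour, and Tyrobp 14.89, 15.12 and 15.40 without and 14.86, 14.80 and 14.65 with tumour. Both adaptors were lower in every tumour-bearing library, with differences of -0.34 for Fcer1g (limma adjusted p = 0.349) and -0.37 for Tyrobp (limma adjusted p = 0.301). Without tumour-free replicate 3 these were -0.17 and -0.23. The summed level of T and NK cell markers was lower in the same tumour-bearing libraries, at 11.25 to 11.54 without and 10.77 to 10.84 with tumour. Its part in the differences of the adaptors was not tested. Fcgrt varied little within each group, at 15.51, 15.56 and 15.59 without and 15.12, 15.00 and 14.94 with tumour (difference -0.53, SE 0.15, limma adjusted p = 0.0819). The summed LSEC level given above was lower in the same tumour-bearing libraries. So was that of hepatocyte markers, at 14.17 to 14.76 without and 12.56 to 12.94 with tumour. The part of both in the Fcgrt difference was not tested.

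Over the 10 genes, limma called 0 in TIM4+CD206high KCs, where 7.23% of all 14561 genes tested were called (5.21% higher and 2.03% lower), and 2 had an unadjusted p under 0.05 (Fcgr2b and Fcgrt). The groups were apart for 6 of the 10, where 30.7% of all genes were apart, with Syk and Plcg2 higher (15.6% of all genes) and 4 lower (15.2%). Without tumour-free replicate 2, limma called 3 of the 10, all lower with tumour: Fcgr4, Fcgr2b and Fcgrt. In that same fit it called 25% of all genes, 17.6% higher and 7.38% lower. Without tumour-free replicate 3 it called 1, Fcgrt, and 8.76% of all genes. The level of the median tested gene was 0.16 higher with tumour in this table. Relative to it the differences were -0.97 for Fcgr2b, +0.16 for Syk and +0.43 for Plcg2.

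**Figure D2:**
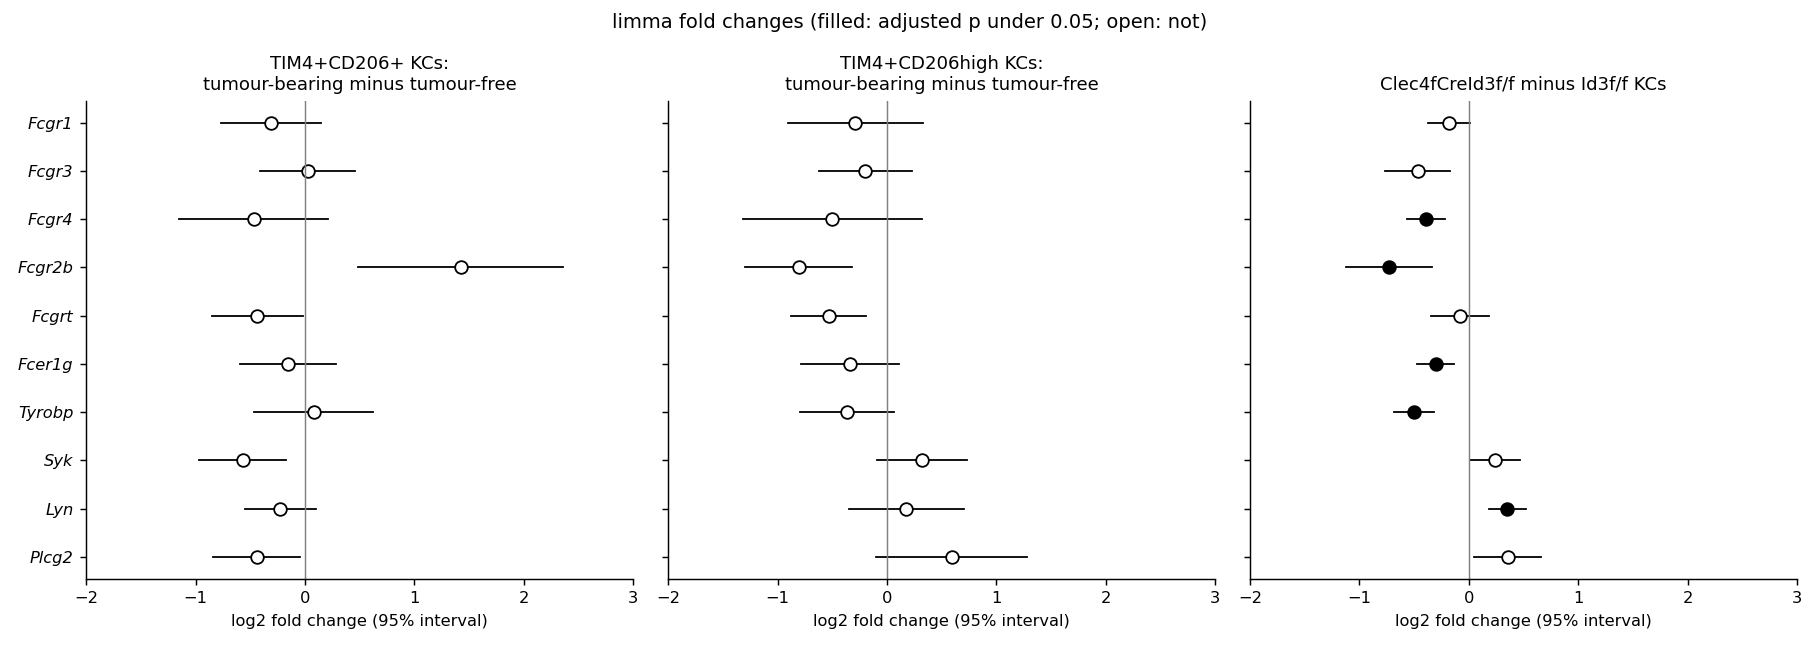
Difference of group means (log2 fold change, horizontal axis) of each gene from limma, with its 95% interval (line), in each of the 3 comparisons. Filled points, found only in the Id3 comparison, passed an adjusted p of 0.05, and Fcgr2b lies at +1.42, -0.81 and -0.73. The interval of each gene is wider in both tumour comparisons, where an open point does not show that a gene was unchanged.

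The balance of the receptors was computed in each library as the mean log2 value of Fcgr1, Fcgr3 and Fcgr4 minus that of Fcgr2b. As a score over genes chosen for this description, it was given no test. In TIM4+CD206+ KCs it was 3.92, 4.80 and 3.79 without tumour and 2.49, 2.38 and 2.60 with tumour. The groups did not overlap, and the mean was 4.17 ± 0.55 without and 2.49 ± 0.11 with tumour (SD, n = 3 each). In TIM4+CD206high KCs it was below 0 in all 6 libraries, at -1.29, -1.28 and -1.13 without tumour and -0.59, -0.85 and -0.83 with tumour. Here the difference had the other sign, with means of -1.24 ± 0.09 without and -0.76 ± 0.15 with tumour (n = 3 each), again with no overlap. Whether the level lay below 0 depended on the averaging. With the log2 of the summed activating receptors minus Fcgr2b, all 6 TIM4+CD206high libraries were above 0. These values were 0.45, 0.77 and 0.60 without and 1.27, 1.02 and 1.02 with tumour.

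The balance was also taken for each activating receptor alone. All 3 of these values subtract the same Fcgr2b, so they are not separate evidence. In TIM4+CD206+ KCs Fcgr2b itself differed by +1.42 (limma adjusted p = 0.115), and the mean balance by -1.67. There Fcgr1 minus Fcgr2b ran from 2.97 to 4.09 without and 1.52 to 1.80 with tumour. Fcgr3 minus Fcgr2b ran from 4.54 to 5.75 and 3.44 to 3.61, and Fcgr4 minus Fcgr2b from 3.85 to 4.54 and 2.19 to 2.41. In TIM4+CD206high KCs all 3 were higher on average with tumour, with no overlap for Fcgr1 and Fcgr3 and with overlap for Fcgr4, at -1.47 ± 0.40 without and -1.17 ± 0.14 with tumour (n = 3 each). Fcgr3 exceeded Fcgr2b in all 3 tumour-bearing libraries of this subset and in 1 of the 3 tumour-free ones. Per kilobase of transcript the balance was 4.07 ± 0.55 and 2.39 ± 0.11 in TIM4+CD206+ KCs and -1.33 ± 0.09 and -0.85 ± 0.15 in TIM4+CD206high KCs, without and with tumour (n = 3 each).

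**Figure D3:**
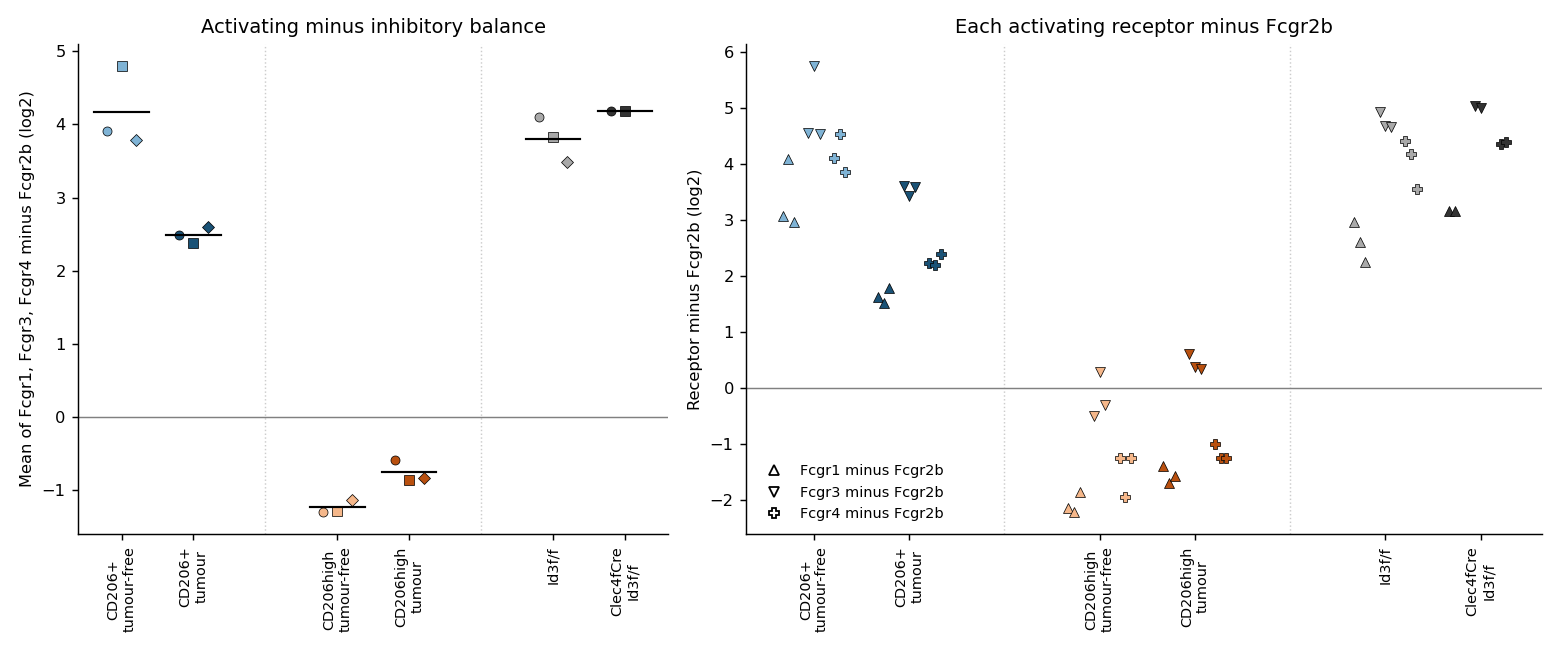
Balance of activating to inhibitory Fc gamma receptor expression on the log2 scale (vertical axes) in each library by group, as the mean of 3 receptors (left, bars are group means) and for each receptor alone (right). TIM4+CD206high libraries lie at or below -0.59 in the left panel and the others at or above 2.38.

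The levels of Fcgr2b and of the LSEC markers are set beside each other by library in the plot of both. In TIM4+CD206high KCs the 3 tumour-free libraries were higher in both than the 3 tumour-bearing ones. In TIM4+CD206+ KCs the libraries with the most Fcgr2b, those with tumour, included the 2 with the least LSEC signal. Among the tumour-free libraries of this subset, replicate 2 had the least of both. In the Id3 table the 4 libraries other than Id3f/f replicate 3 had LSEC levels between 14.05 and 14.12, while their Fcgr2b ran from 9.82 to 10.46.

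**Figure D4:**
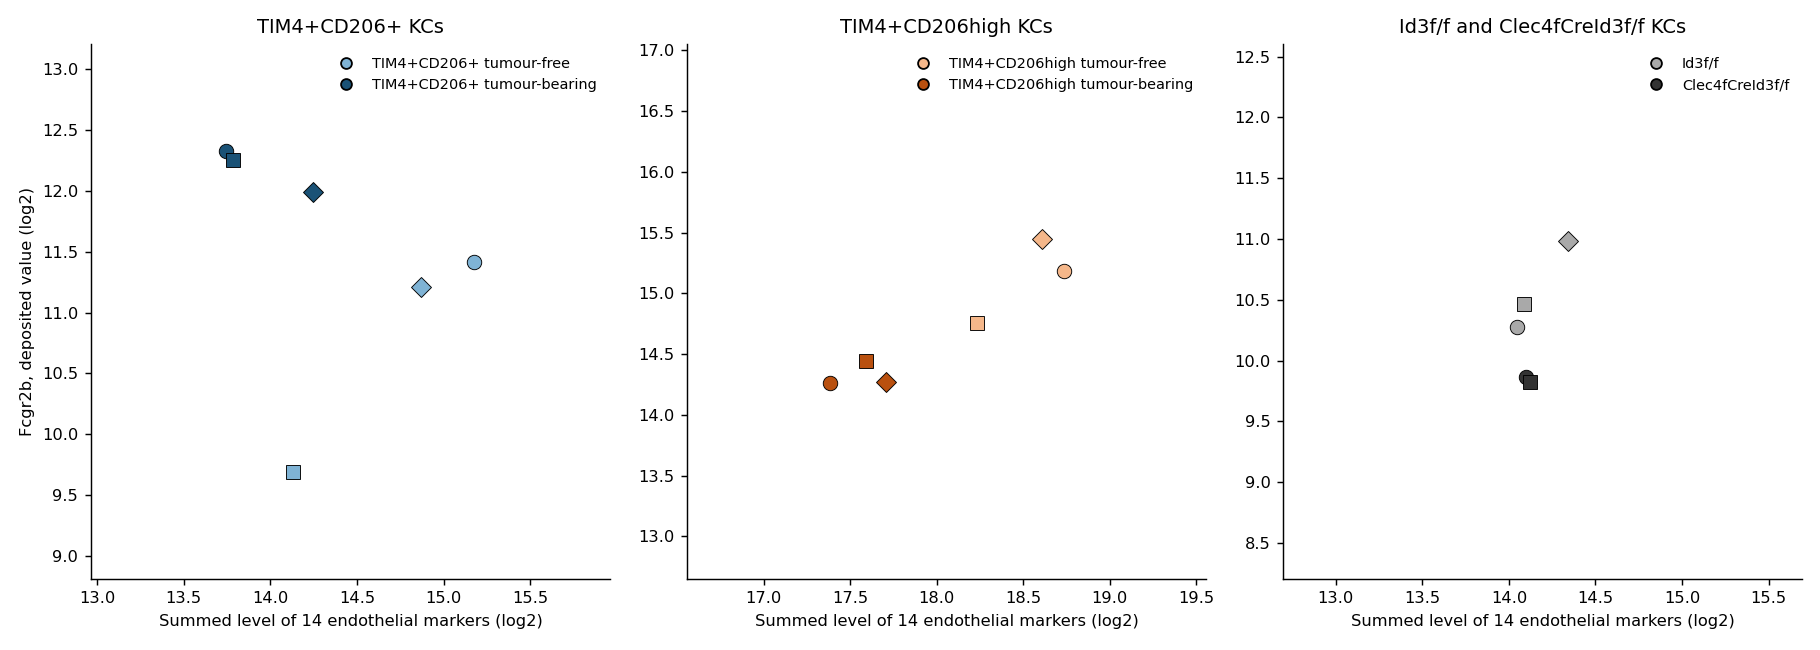
Deposited log2 value of Fcgr2b (vertical axis) against the log2 of the summed level of 14 LSEC markers (horizontal axis) in each library, 1 panel per table with the same span of both axes (circle, square and diamond for replicates 1, 2 and 3). Tumour-bearing TIM4+CD206high libraries lie at 17.38 to 17.71 and tumour-free ones at 18.23 to 18.73 on the horizontal axis.

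Deletion of Id3 in KCs went with lower expression of both sides of the receptor system. Tyrobp, Fcgr2b, Fcgr4 and Fcer1g fell and Lyn rose, 5 of the 10 genes called by limma where 6.44% of all 12833 genes tested were called (3.37% lower and 3.08% higher). The groups were apart for 9 of the 10, 6 lower and 3 higher, where 41.9% of all genes were apart (21.7% lower and 20.2% higher). Fcgrt was the exception.

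Tyrobp had 15.49, 15.29 and 15.39 in Id3f/f and 14.82 and 14.96 in Clec4fCreId3f/f KCs, a fall to 0.706 of the control on the linear scale (difference -0.50, SE 0.08, limma adjusted p = 0.0117). Fcer1g had 15.68, 15.51 and 15.56 against 15.23 and 15.32 (difference -0.31, SE 0.08, limma adjusted p = 0.0464). Both adaptors were lower in each deleted library than in any control, Fcer1g by the smaller margin. With quantile normalisation the difference of Fcer1g was -0.12 (limma adjusted p = 0.411), which ended its call.

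Fcgr4 had 14.69, 14.64 and 14.54 in Id3f/f and 14.23 and 14.22 in Clec4fCreId3f/f KCs (difference -0.39, SE 0.08, limma adjusted p = 0.0197). Fcgr2b had 10.28, 10.46 and 10.98 against 9.86 and 9.82 (difference -0.73, SE 0.17, limma adjusted p = 0.0396), 0.602 of the control on the linear scale and the most of the 10 genes in size. Fcgr3 had 15.21, 15.15 and 15.64 against 14.90 and 14.83 (difference -0.47, SE 0.13, limma adjusted p = 0.064), with no overlap but short of the threshold. Fcgr1 had 13.24, 13.08 and 13.24 against 13.03 and 12.98 (difference -0.18, limma adjusted p = 0.226). Id3f/f replicate 3 held the highest Fcgr3 and Fcgr2b values and also the highest LSEC level (14.34 against 14.05 to 14.12 in the others). Without it the differences were -0.32 for Fcgr3 (limma adjusted p = 0.00248) and -0.53 for Fcgr2b (limma adjusted p = 0.00381).

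Among the enzymes, Lyn had 13.68, 13.73 and 13.67 in Id3f/f and 14.07 and 14.03 in Clec4fCreId3f/f KCs (difference +0.35, SE 0.07, limma adjusted p = 0.0259), a 1.28-fold rise. Syk had 11.21, 11.27 and 10.99 against 11.41 and 11.38 (difference +0.24, limma adjusted p = 0.193), and Plcg2 9.91, 10.40 and 10.24 against 10.60 and 10.48 (difference +0.36, limma adjusted p = 0.151). The means of these 3 signalling genes were thus higher in deleted KCs while those of the 4 receptors and 2 adaptors were lower, and of the enzymes only Lyn passed. Fcgrt differed by -0.08 (95% interval -0.34 to 0.18).

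With no filter on low values and with no mean-variance trend, limma called 3 of the 5 (2.86% and 6.1% of all genes), and in both the calls of Fcgr2b (adjusted p = 0.0725 and 0.0888) and Fcer1g (0.0586 and 0.0688) were lost. All 5 calls depended on both deleted libraries. Without Clec4fCreId3f/f replicate 1 or 2, where the remaining one was assumed to vary like the controls, limma called 0 of the 10 (and 0.132% and 0.148% of all genes), and adjusted p values of the 5 ran from 0.151 to 0.470. Without Id3f/f replicate 1 or 2 it called Tyrobp only (1.61% and 3.19% of all genes). Markers of monocytes, cells that also express Fc gamma receptors, were lower in deleted KCs, with a summed log2 level of 13.63 to 13.91 in Id3f/f and 12.82 to 12.93 in Clec4fCreId3f/f libraries and 2 of the 8 (Vcan and F13a1) below the filter, and their part in the result was not tested.

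The balance in the Id3 table was 4.10, 3.83 and 3.49 in Id3f/f and 4.19 and 4.19 in Clec4fCreId3f/f KCs, a mean of 3.80 ± 0.31 (n = 3) against 4.19 (n = 2). Both deleted libraries lay above all controls, the nearest of which was replicate 1. The difference, 0.38, was 0.22 without Id3f/f replicate 3 and 0.53 without Id3f/f replicate 1. Taken alone, Fcgr1 and Fcgr3 minus Fcgr2b did not overlap between the genotypes and Fcgr4 minus Fcgr2b did, at 3.55 to 4.41 in Id3f/f and 4.37 to 4.40 in Clec4fCreId3f/f KCs. Of the 7 other genes between Fcgr2b and Fcer1g on chromosome 1, 6 were tested and 0 were called by limma in this comparison, 1 with an unadjusted p under 0.05.

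Beyond the 10 genes, 91 other genes of the pathway were examined, of which 85 were tested in each subset and 81 in the Id3 table. In TIM4+CD206+ KCs, limma called 7 higher and 1 lower with tumour, 8.24% and 1.18% of the 85, where 2.55% and 0.998% of all genes were called. Of 19 other receptors that signal through an ITAM or hemITAM, 5 rose and 1 fell. Trem1, an amplifier of inflammatory responses that pairs with Tyrobp, rose by 2.16 on the log2 scale (SE 0.25, limma adjusted p = 0.00248), from 7.77 to 9.93. Trem2, a lipid-sensing receptor that also pairs with Tyrobp, rose by 1.74 (limma adjusted p = 0.00212), and Clec5a, another Tyrobp partner, by 1.99 (limma adjusted p = 0.00288). The C-type lectins Clec4e and Clec4d, which use Fcer1g, rose by 1.77 and 1.58 (limma adjusted p = 0.00441 and 0.00788), and Pira2 fell by 0.97 (limma adjusted p = 0.0447), a call lost with median centring. Monocytes and neutrophils, whose markers were higher in the same libraries, also express Trem1, Clec5a, Clec4e and Clec4d, and their part in these changes was not tested.

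Among 32 adaptors and effectors 1 was called in TIM4+CD206+ KCs, Lat2, a membrane scaffold, which rose by 1.66 (limma adjusted p = 0.00701). Of the 10 other Fc receptors and IgG-handling genes 1 was called, Fcrls, which rose by 2.28 from a low level of 6.73 (limma adjusted p = 0.0209). Among the 9 proximal kinases and regulators of them and the 15 negative regulators tested, limma called 0, and 2 of each list had an unadjusted p under 0.05. With the replicate number as a block, limma called 15 of the 85, 10 higher and 5 lower, and without tumour-free replicate 2 it called 16. Those were 17.6% and 18.8% of the list, where 7.75% and 7.72% of all genes were called. The median difference of the 85 was -0.09, against 0.02 over all genes.

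In TIM4+CD206high KCs 4 of the 85 were called higher and 4 lower, 4.71% each, where 5.21% and 2.03% of all genes were called. Trem1 rose by 2.10 (limma adjusted p = 0.00289), Clec5a by 1.86 (limma adjusted p = 0.00362), Trem2 by 1.63 (limma adjusted p = 0.0438) and Pag1, an adaptor that brings the inhibitory kinase Csk to Src-family kinases, by 1.30 (limma adjusted p = 0.00671). Pilrb1 fell by 0.80 and Pilrb2 fell by 0.75 (limma adjusted p = 0.0244 and 0.0284), near copies of each other whose reads may be hard to separate. Fcer2a, the low-affinity IgE receptor gene, fell by 1.21 and Fcrla fell by 0.99 (limma adjusted p = 0.017 and 0.0419). Fcer2a and Fcrla are best known from B cells, of whose markers 2 of 8 were also lower in the tumour-bearing libraries of this subset, and the part of B-cell RNA in them was not tested. Among the 32 adaptors and effectors and the 15 negative regulators, limma called 0, and 5 and 2 of them had an unadjusted p under 0.05. Trem1, Trem2 and Clec5a were called higher in both subsets. In the tumour-bearing TIM4+CD206high libraries 3 of 8 monocyte and 5 of 9 neutrophil markers were also called higher. The part of RNA from those cells in Trem1 and Clec5a was not tested. The count of called genes was 4, 23 and 13 without tumour-free replicate 1, 2 and 3 and was 2, 3 and 4 without tumour-bearing replicate 1, 2 and 3, so that it depended on single libraries. The 23 were 27.1% of the list, where 25% of all genes were called.

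With Id3 deletion 10 of 81 pathway genes were called higher and 9 lower, 12.3% and 11.1% of the list, where 3.08% and 3.37% of all genes were called. Of 17 other ITAM-coupled or hemITAM receptors 6 fell and 0 rose. Trem2 fell by 0.94 (SE 0.09, limma adjusted p = 0.00102), from 8.58 to 7.65, and Clec7a, the beta-glucan receptor Dectin-1, by 0.70 (limma adjusted p = 0.0058). Of 14 negative regulators 4 rose and 0 fell, among them Dok3 by 0.59 (limma adjusted p = 0.0164), Ubash3b by 0.53 (limma adjusted p = 0.0424) and Inpp5d, which encodes the phosphatase SHIP1 that Fcgr2b recruits, by 0.52 (limma adjusted p = 0.0344). Of 32 adaptors and effectors 5 rose and 2 fell. The kinase subunit gene Pik3cd rose by 0.82 (limma adjusted p = 0.00165), Pik3ap1 by 0.69 (limma adjusted p = 0.0158) and the exchange factor gene Vav1 by 0.54 (limma adjusted p = 0.0236), while Ncf4, a subunit of the phagocyte oxidase, fell by 0.52 (limma adjusted p = 0.00887). Of 10 proximal kinases 1 rose, Fyn, by 0.58 (limma adjusted p = 0.0115). Of 8 other Fc receptors and IgG-handling genes 1 fell, B2m, whose product pairs with that of Fcgrt, by 0.45 (limma adjusted p = 0.00551). It was picked out here after its values were seen, as the only call of its list. The median difference was -0.26 over the other receptors and 0.28 over the negative regulators, against 0.00 over all genes tested. The summed log2 level of monocyte markers was 13.63 to 13.91 in Id3f/f and 12.82 to 12.93 in Clec4fCreId3f/f libraries. Its part in the changes of these pathway genes was not tested, and sex and genotype cannot be told apart for them. With quantile normalisation limma called 15 higher and 4 lower in place of 10 and 9, and of the other receptors only Trem2 and Clec7a were then called, both lower. The count over all 81, which was 19, was 0 and 1 without Clec4fCreId3f/f replicate 1 and 2, and 8, 12 and 29 without Id3f/f replicate 1, 2 and 3, where 1.61%, 3.19% and 14.4% of all genes were called.

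**Figure D5:**
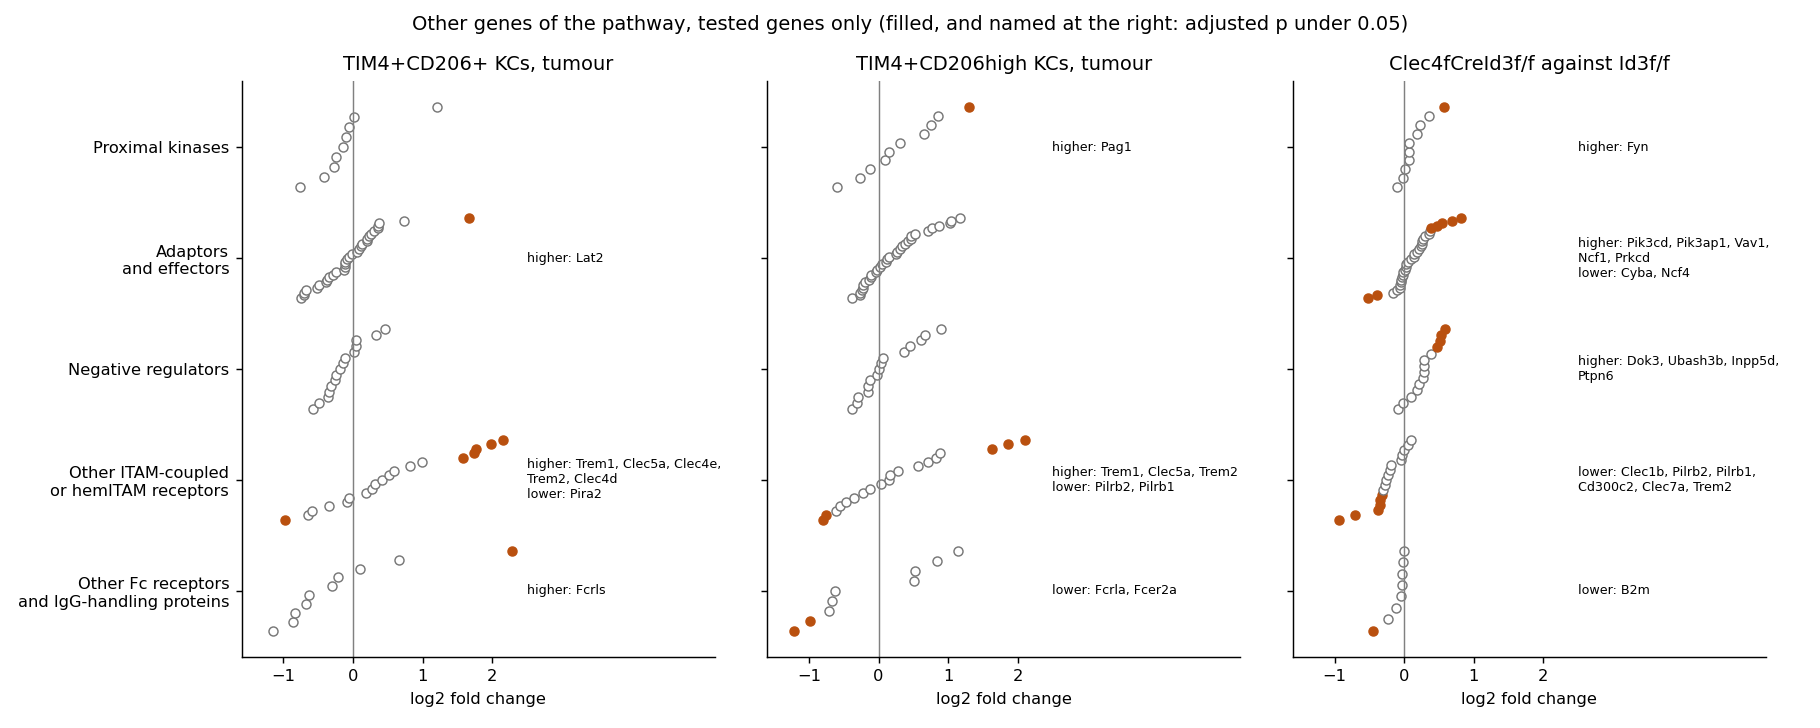
Log2 fold change (horizontal axis) of each tested gene of 5 lists of the pathway, sorted within its list (rows), in each comparison. Filled points passed an adjusted p of 0.05 and are named at the right, and the other ITAM-coupled receptors have 5 filled points to the right of 0 in TIM4+CD206+ KCs and 6 to the left of 0 in the Id3 comparison.

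The genes whose levels were most like those of each Fc gamma receptor were taken from the 13110 genes tested in both subsets, by the mean of Pearson's r over the 6 TIM4+CD206+ and the 6 TIM4+CD206high libraries. For Fcgr1 they were Bsdc1 (mean r 0.98), C1qa (0.97) and Cln3 (0.97), for Fcgr4 Tnf (0.98), Gbp8 (0.97) and Bsdc1 (0.97), for Fcgr3 Fbxo36 (0.94), Tmem199 (0.92) and Evi2b (0.92), and for Fcgr2b Tuba1a (0.97), 4921524J17Rik (0.97) and S100a16 (0.96). These are descriptions over libraries that share a tumour difference and, for Fcgr1, Fcgr4 and Fcgr2b, a low tumour-free replicate 2 in both tables.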

How the data were processed

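Kupffer cells were sorted by flow cytometry and their RNA was amplified by SMART-Seq v4 and sequenced as paired reads on an Illumina HiSeq instrument. The submitters' processing notes name mm10, STAR 2.7.10a, HTSeq and DESeq2. The deposited tables, 1 per comparison, are named for counts and TPM, but the values the authors deposited behave as regularised log2 read counts, normalised within each table, in which low genes are drawn together. The depth of each library cannot be read from them.

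Genes with a log2 value of at least that of 10 reads in as many libraries as the smaller group were tested with limma 3.58.1 (R 4.3.3, empirical Bayes with a mean-variance trend, two-sided, Benjamini-Hochberg over all tested genes, threshold 0.05), within each table only. The script was tested on simulated data, drawn as independent normal values with a spread smoothed over the expression level of each table. There limma recovered 0.5% of log2 changes of 0.5 in each tumour comparison and 98% in the Id3 comparison. It recovered 82.5% of changes of 1 in TIM4+CD206+, 67% in TIM4+CD206high and 100% in the Id3 comparison. Differences in spread between genes of like level were left out, so these shares need not hold for the real data. In the real Id3 comparison Fcgr3 differed by -0.47 and was not called. Levels between genes were compared after subtracting the log2 of the median coding transcript length (GENCODE, GRCm38). Same-numbered TIM4+CD206+ samples deviated together (r of 0.35, 0.56 and 0.15 for replicates 1, 2 and 3), so the fit with the replicate number as a block is given where it changes a call. Those of the other tables did not.

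Pathway genes were named by size of change, up to 10 called genes per comparison. The genes, lists and rules were chosen with earlier results of these data known. The alternatives were no filter, a filter at a mean of 50 reads, no trend, the replicate block, median centring, quantile normalisation and leaving out each library.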

Additional observations from a re-analysis of the deposited data

Results flagged for a closer look

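Of the 10 genes, 3 had groups that did not overlap in either subset and differed in opposite directions with tumour. The log2 difference of Fcgr2b was +1.42 in the TIM4+CD206+ subset against -0.81 in the TIM4+CD206high one. Those of Syk were -0.57 and +0.32, and those of Plcg2 -0.44 and +0.59, in the same order. In the TIM4+CD206high subset that of Plcg2 was +0.26 without tumour-free replicate 3 and that of Syk +0.19 without tumour-free replicate 1, and in the TIM4+CD206+ subset that of Fcgr2b was +0.88 without tumour-free replicate 2. Every tumour-bearing library lay on one side of every tumour-free one in the first subset and on the other side in the second. Of all 13110 genes tested in both subsets, 114 (0.87%) had this pattern and 1211 (9.24%) were apart in the same direction in both. The difference between the subsets was not tested, since their tables were normalised separately. The signs were kept under median centring and quantile normalisation. LSEC markers were lower with tumour in TIM4+CD206high KCs, B-cell markers (13.61 to 13.70 without and 12.69 to 12.73 with tumour, 4 of 6 called lower) and KC markers (20.74 to 21.25 and 20.31 to 20.42, 3 of 9 called lower) in TIM4+CD206+ KCs, and monocyte and neutrophil markers higher in both subsets, and their part in these differences was not tested.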

How the results depend on the processing

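Of 350 values of single genes under the alternatives, 308 kept their direction and their side of the threshold, 23 lost a call, 11 gained one and 8 changed sign. Those 8 were small differences. In TIM4+CD206+ KCs Fcgr3 was -0.048 with median centring and ran from -0.12 (tumour-free replicate 2 left out) to 0.15 over the libraries left out, being below 0 also with tumour-bearing replicate 1 left out (-0.074), and Tyrobp ran from -0.16 (tumour-free replicate 2 left out) to 0.28. Lyn in TIM4+CD206high KCs ran from -0.020 (tumour-free replicate 3 left out) to 0.38. Fcgrt in the Id3 table was 0.049 with the replicate block, 0.033 with quantile normalisation and -0.14 to 0.049 over the libraries left out, the last value with Id3f/f replicate 3 left out. The cause was not tested.

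In TIM4+CD206+ KCs the replicate block called 1 of the 10 genes and 15 of the pathway genes, and leaving out libraries gave 0 to 2 and 6 to 16. In TIM4+CD206high KCs leaving out libraries gave 0 to 3 of the 10 and 2 to 23 of the pathway genes, and the block, for which the numbers did not pair the samples (r of -0.05, -0.13 and -0.05), gave 5. In the Id3 table no filter and no trend each gave 3 of the 10, without Fcgr2b and Fcer1g, and no filter 12 of the pathway genes. Leaving out libraries gave 0 to 6 and 0 to 29, and the block (r of -0.07 and -0.10) gave 7 and 29, with 16.3% of all genes called. The balance differed in the same direction under all alternatives, by -1.86 to -1.36, 0.39 to 0.53 and 0.22 to 0.53 when libraries were left out. Depth is unknown, groups held 2 or 3 libraries, and low genes are drawn together by the authors' transformation, which understates their differences.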

Other observations

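Apoa2, an apolipoprotein gene made by hepatocytes, lies beside Fcer1g on chromosome 1 and was the single called gene among the neighbours of the receptor cluster in both subsets. With tumour Apoa2 fell by 1.37 on the log2 scale in TIM4+CD206+ KCs (limma adjusted p = 0.0493) and fell by 1.79 in TIM4+CD206high KCs (limma adjusted p = 0.001). The hepatocyte markers were lower in the same libraries, with a lowest summed log2 level of 14.18 without and 12.57 with tumour in the first subset and 14.17 and 12.56 in the second, and no overlap. It was picked out after its values were seen.

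Clec4f, the KC lectin gene whose promoter drives the Cre, was lower in Clec4fCreId3f/f KCs, at 17.59, 17.62 and 17.71 in Id3f/f and 16.13 and 16.11 in Clec4fCreId3f/f libraries on the log2 scale (difference -1.52).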
